A study of Rattus norvegicus with 16 samples.

Results

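The immediate early genes examined here were Fos, Fosb, Jun, Junb, Egr1, Ier2, Nr4a1, Atf3, Zfp36 and Btg2, chosen by name and matched to the symbol that each deposited count file pairs with an Ensembl rat gene. All 10 were found, each with 1 entry, among the 18031 genes that every file lists. The 16 libraries came from whole blood of male Sprague-Dawley rats aged 85 to 90 days, 1 rat per library, and all carry the label of a saline control, so they form a single group. Each rat had 4 saline injections of 1 ml/kg, spaced 2 h apart, without food or water, and was killed 3 h after the last injection, when blood was drawn from the heart with a needle in the late afternoon of the light phase. The rats are numbered 1 to 16 in the labels and are called control 1 to control 16. The treatment text of the labels also names rats given saline in a cool or a hot room and rats given amphetamine, and no such samples were analysed here. The measurements therefore describe how the genes varied between saline control blood samples and not a response to a drug.

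Immediate early genes are transcribed within minutes of a stimulus from factors that are already present in the cell, need no new protein synthesis, and give short-lived mRNAs. Their promoters are typically read by serum response factor with its ETS partners and by CREB, downstream of MAP kinases. In blood they are known to respond to stress, adhesion, cytokines and the handling of cells after a draw, and several are abundant in resting neutrophils and monocytes. Fos, Fosb, Jun and Junb encode subunits of the AP-1 transcription factor, Atf3 a stress-induced bZIP repressor, Egr1 a zinc finger transcription factor, Nr4a1 an orphan nuclear receptor, and Ier2 a small nuclear regulator. Zfp36 encodes tristetraprolin, which binds AU-rich elements and hastens decay of cytokine mRNAs, and Btg2 encodes an antiproliferative protein that recruits deadenylases.

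Promoter windows of 300 bases, from 250 bases before to 50 after the gene start, were read for 7 of the 10 genes from RefSeq sequence of rat build GRCr8. The counts were made on build rn5, so these coordinates are those of GRCr8 only. The windows of Egr1, Zfp36, Ier2 and Btg2 are shown because they hold the longest matches to the motifs of serum response factor and CREB. Capitals mark CArG boxes, the binding motif of serum response factor, and the CREB core TGACG on either strand, alone or within the full palindrome TGACGTCA.
Egr1, chr18:26736828-26737127, plus strand: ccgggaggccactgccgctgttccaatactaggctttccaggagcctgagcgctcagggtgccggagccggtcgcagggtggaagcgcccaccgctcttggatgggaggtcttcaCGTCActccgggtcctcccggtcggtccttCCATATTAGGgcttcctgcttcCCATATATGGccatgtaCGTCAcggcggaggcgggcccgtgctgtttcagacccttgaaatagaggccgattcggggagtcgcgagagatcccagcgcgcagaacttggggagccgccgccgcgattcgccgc
Zfp36, chr1:92799059-92799358, minus strand: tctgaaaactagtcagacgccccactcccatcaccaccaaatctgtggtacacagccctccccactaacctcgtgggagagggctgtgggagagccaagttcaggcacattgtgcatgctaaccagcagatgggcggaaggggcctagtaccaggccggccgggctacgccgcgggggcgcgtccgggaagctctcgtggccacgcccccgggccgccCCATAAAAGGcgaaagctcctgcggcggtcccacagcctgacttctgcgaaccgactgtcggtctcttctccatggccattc
Ier2, chr19:40399123-40399422, plus strand: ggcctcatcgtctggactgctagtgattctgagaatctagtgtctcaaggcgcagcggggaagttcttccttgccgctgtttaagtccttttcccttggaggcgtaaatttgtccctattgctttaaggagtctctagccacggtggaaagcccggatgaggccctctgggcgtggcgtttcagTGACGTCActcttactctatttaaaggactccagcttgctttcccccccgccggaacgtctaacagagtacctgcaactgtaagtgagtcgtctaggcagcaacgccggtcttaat
Btg2, chr13:48087641-48087940, minus strand: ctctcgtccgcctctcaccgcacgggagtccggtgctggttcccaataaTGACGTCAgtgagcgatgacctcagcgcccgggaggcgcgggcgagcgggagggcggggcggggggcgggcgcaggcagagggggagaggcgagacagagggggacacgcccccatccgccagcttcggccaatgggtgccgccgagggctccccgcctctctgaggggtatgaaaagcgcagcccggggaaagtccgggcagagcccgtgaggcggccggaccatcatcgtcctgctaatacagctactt

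The Egr1 window held 2 CArG boxes, CCATATTAGG at position -105 and CCATATATGG at position -83 from the gene start, and the Zfp36 window held 1, CCATAAAAGG at position -32. A CArG box was found in 1.64% of the 33469 promoter windows of the same length. The palindrome TGACGTCA stood at position -66 in the Ier2 window and at position -201 in the Btg2 window, against 1.83% of all windows. The shorter core TGACG, searched on both strands and contained in each palindrome, was present in 5 of the 7 windows (Junb, Egr1, Ier2, Nr4a1 and Btg2) and in 21.2% of all windows. The Nr4a1 window held 4 copies of the core, and the Egr1 window held 2. The AP-1 motif TGANTCA was in none of the 7 windows and in 7.33% of all windows. The 6 letters GGGCGG of a GC box were in 3 of the 7 and in 33.1% of all, and TATAAA was in 2 of the 7 and in 14.2% of all. The EGR motif was in 3 of the 7 (Nr4a1, Zfp36 and Btg2) and in 4.98% of all, with some overlap with GC boxes. A match describes these letters only and was not tested as a site. No entry was found for Fos, Jun or Atf3.

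Totals ranged from 21466776 to 31189549 estimated counts per library, so that 3 counts, taken as the floor of detection, correspond to 0.096 to 0.14 CPM, the usual depth-scaled count. The floor covers counting error only. File names carry a leading code, called the run code here and used as a batch. The labels do not say what it marks, and a sequencing run and an experiment on its own date cannot be told apart. Code A covers 3 libraries (controls 1 to 3), code B 5 (controls 4, 5, 7, 8 and 10), code C 2 (controls 6 and 9), code D 4 (controls 11 to 14), and codes E and F 1 each (controls 15 and 16). Markers of T cells, B cells, monocytes, neutrophils, platelets and red cells were present in every library, with the summed neutrophil level running from 33718 to 1075355 normalized counts. Control 2 stood apart by its liver transcripts, which summed to 424765 normalized counts against a median of 40.6, with control 8 next at 18947. Control 12 had thymocyte transcripts of 5769.6 against a median of 33.4, and adipose transcripts of 1967.6 against 56.2. Cardiac muscle transcripts were highest in control 10, at 412.5 against a median of 14.2. A normalized count is the rounded count divided by the size factor of its library, and a level of 1 gene is compared here only with the same gene in other libraries, since no transcript lengths were used.

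Control 1 had levels of Fos and Egr1 that no other library approached. For Fos (ENSRNOG00000008015) the lowest level was 149.5 normalized counts in control 10, the median of the 16 was 630.2 and control 1 had 9657. The second highest library, control 16, had 988.1, so control 1 exceeded it 9.77-fold and exceeded the median of the other 15 libraries 15.9-fold. For Egr1 (ENSRNOG00000019422) the lowest level was 16.2 in control 7, the median was 61.3 and control 1 had 2522. The next library was control 12 with 158.1, a ratio of 15.9, and the ratio of control 1 to the median of the others was 42.7. In neither gene did control 1 overlap with the remaining 15 libraries. The mean level of Fos was 1126 ± 2289 (SD, n = 16) with control 1 and 557.5 ± 260.9 (n = 15) without it, and that of Egr1 was 223.5 ± 614.3 and 70.3 ± 43.4. Control 1 was singled out after its values had been seen.

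**Figure D1:**
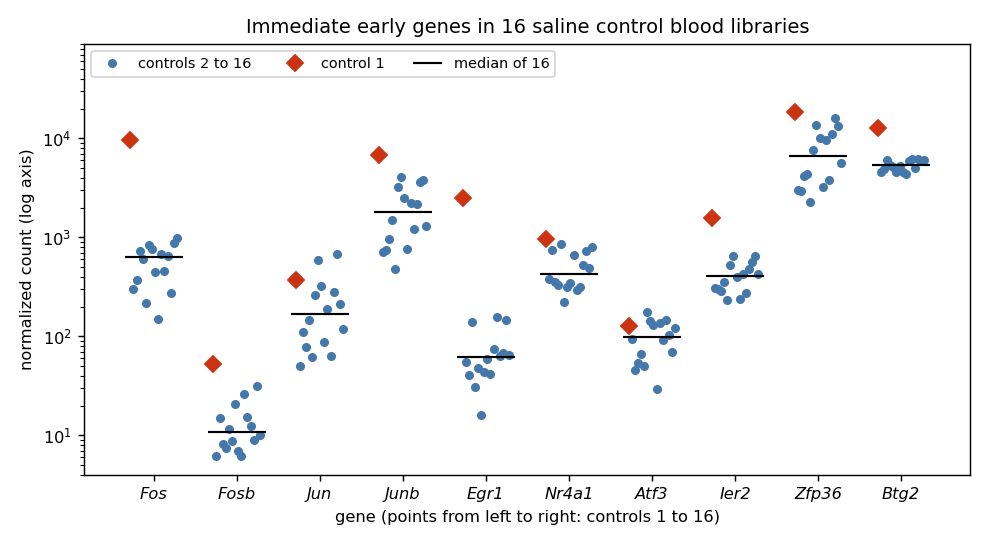
Normalized counts on a log axis of the 10 immediate early genes in the 16 control libraries, 1 point per library in the order of control number within each gene, with control 1 as a red diamond and the median of 16 as a bar. Control 1 lies far above the others for Fos (9657) and Egr1 (2522), above them by less for Btg2 and Ier2, and within their range for Jun and Atf3.

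The other AP-1 subunits stood out less in control 1. Fosb (ENSRNOG00000046667), the least counted of the 10, had raw estimated counts of 4 to 60, and its levels ran from 6.23 in control 10 over a median of 10.8 to 52.3 in control 1. The next library, control 15, had 31.7. At so few counts the order of the lower libraries is not resolved. Junb (ENSRNOG00000042838), which often opposes c-Jun at AP-1 sites, ran from 480.6 in control 6 over a median of 1824 to 6734 in control 1, with control 8 next at 4058. Jun (ENSRNOG00000026293), the c-Jun subunit, ran from 50.1 in control 2 over a median of 167.7 to 679.5 in control 14, followed by control 8 at 587.4 and control 1 at 372.8. Unlike Fos, Jun was spread over the whole range, and its coefficient of variation of 82.8% was 87.6% without control 1. Atf3 (ENSRNOG00000003745) ran from 29.6 in control 10 over a median of 99.5 to 174.8 in control 7, and control 1 lay inside that range at 127.2.

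Among the genes that encode other regulators, Ier2 and Btg2 also separated control 1 from all other libraries. Ier2 (ENSRNOG00000047811) ran from 230.6 in control 6 over a median of 410.0 to 1578 in control 1, and the next library, control 8, had 654.8. Btg2 (ENSRNOG00000003300) ran from 4417 in control 10 over a median of 5359 to 12854 in control 1, and the next library, control 14, had 6201. The remaining 15 libraries differed little in Btg2, with a coefficient of variation of 12.1% against a median of 29.95% over the 12952 tested genes in the same 15 libraries. Zfp36 (ENSRNOG00000019673) ran from 2268 in control 6 over a median of 6663 to 18665 in control 1, with control 14 close at 16140. Nr4a1 (ENSRNOG00000007607) ran from 223.6 in control 7 over a median of 431.3 to 969.5 in control 1, with control 6 close at 849.9. For Zfp36 and Nr4a1 control 1 was the highest of a continuous range.

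Egr1 and Fos were the 2 genes of all 12952 tested, 0.0154%, whose level in control 1 was at least 4 times that of the next library. By comparison, the same count was 250 in control 2, 18 in control 12 and at most 5 in each of the other 13 libraries. Ranked by the ratio of control 1 to the next library among the 12952 tested genes, Egr1 was at place 1, Fos at 2, Ier2 at 3 (ratio 2.41), Btg2 at 4 (ratio 2.07), Junb at 18 (ratio 1.66) and Fosb at 19 (ratio 1.65). Zfp36 was at place 161, Nr4a1 at 191, Atf3 at 3858 and Jun at 7480. Control 1 was the highest library for 8 of the 10 genes, all but Jun and Atf3, and for 4.88% of all tested genes. It was at least 4 times the median of the others for 4 of the 10 (Fos, Fosb, Junb and Egr1) and for 0.795% of all tested genes.

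**Figure D2:**
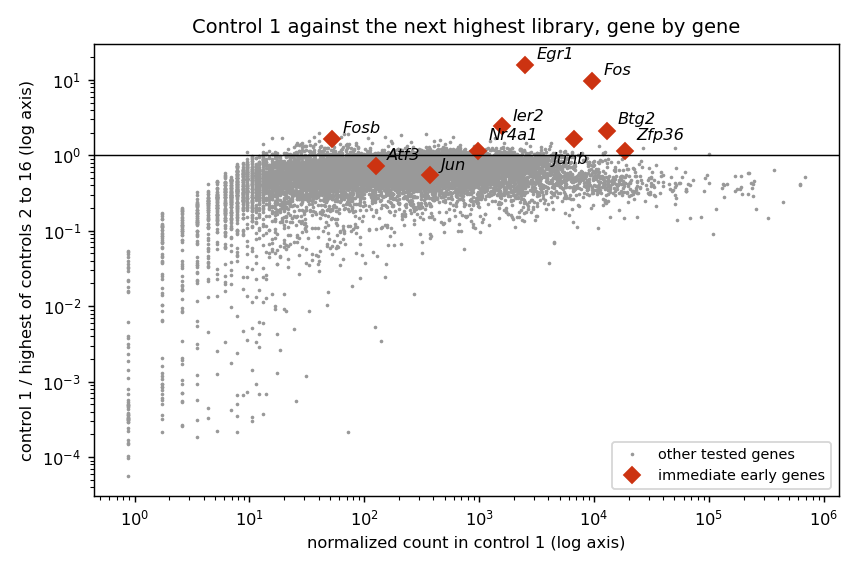
Ratio of control 1 to the highest of the other 15 libraries against the normalized count in control 1, both on log axes, for the tested genes above 0 in control 1, with immediate early genes as red diamonds. Egr1 (15.9) and Fos (9.77) stand alone at the top, and Ier2 (2.41) and Btg2 (2.07) follow.

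Some of the other primary response genes were also highest in control 1, by smaller ratios than Fos and Egr1. Of 58 further primary response genes listed in every file, 54 were tested and 11 were highest in control 1, namely Egr2, Klf2, Klf4, Klf10, Dusp1, Dusp5, Dusp6, Rhob, Plk2, Bhlhe40 and Sgk1. This is 20.4% of the 54, against 4.88% of all tested genes. Egr2, the closest relative of Egr1 among them, was at 72.3 normalized counts in control 1 and at most 37.5 elsewhere, and it was the only one of the 54 (1.85%, against 0.795% of all tested genes) that was at least 4 times the median of the others. Dusp1, a phosphatase that switches off MAP kinases, was at 26560 in control 1 against 20990 in control 8. The median ratio of control 1 to the other libraries was 1.46 over the 54 genes and 1.00 over all tested genes. None of 18 genes of the upstream pathway (Srf and its partners, CREB and ATF factors, MAP kinases and their substrates) was highest in control 1. Against 4.88% of all tested genes, none of 18 is near the share of all genes. The median ratio of the 18 was 0.967.

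**Figure D3:**
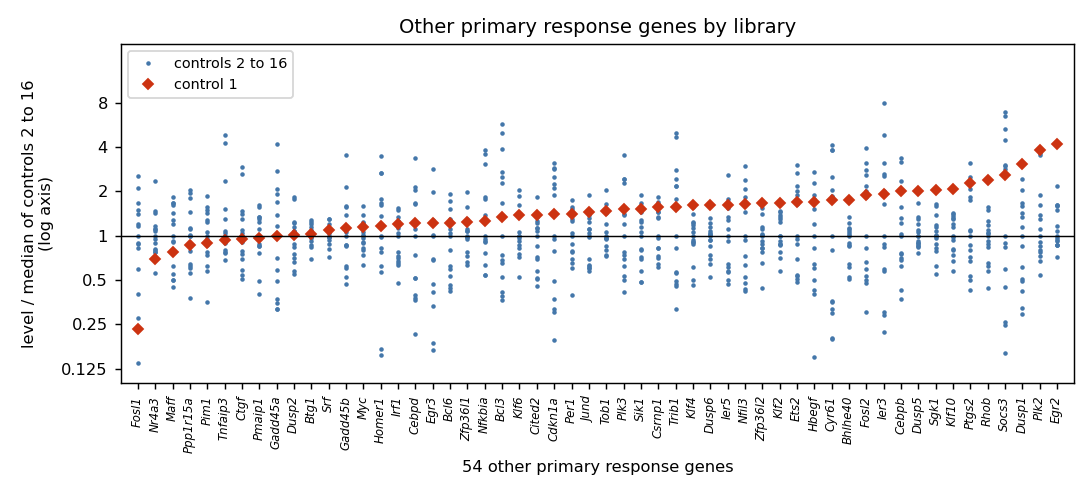
Level of 54 other primary response genes in each library divided by the median of controls 2 to 16, on a log axis, with genes ordered by control 1 (red diamonds) and the other libraries as blue points. Control 1 lies inside the range of the other libraries for 43 of the genes and reaches 4 times their median for Egr2 only.

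Blood cell markers in control 1 lay within the range of the other libraries. No marker of T cells (6 genes), B cells (5), monocytes (6), neutrophils (6), platelets (5) or red cells (4) was highest in control 1. Of all tested genes 4.88% were, so that none of so few markers is near the share of all genes. Its summed neutrophil level of 207309 normalized counts was close to the median of 206224, and its summed T cell level of 8033 was below the median of 8455. On the scale of mean log2 CPM its monocyte level was 7.07, place 5 of the 16, against a median of 6.91. Of the 6 monocyte markers Cd68 (848.4 normalized counts, median of the others 502.7) and Csf1r (3597, median of the others 2331) were second highest in control 1, while Lyz2, which makes up most of the summed monocyte level of 178612, was at 167500 against 201300. Among the other markers, the neutrophil gene Csf3r was at 30100 against a median of the others of 14440, Mmp9 at 1917 against 1092, the B cell gene Ms4a1 at 1266 against 2306 and the platelet gene Ppbp at 78.4 against 152.3. Their part in the Fos and Egr1 levels was not tested. The summed liver level was 110.6 in control 1, with a range of 13.4 to 424765 over the libraries, and the summed cardiac muscle level was 2.6, with a range of 0.0 to 412.5. Of 3 tested endothelial markers 1, Tek, was highest in control 1, with 56.4 normalized counts in the next library. Its globin transcripts made up 2.96% of counts, the lowest share of the 16 libraries, whose median was 9.40% and highest 15.5%, and whether depletion of globin moved with these genes was not tested. Its total count ranked 11 of 16.

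Apart from control 1, the genes fell into sets that moved differently between libraries. Pearson correlations of log2 CPM were computed for all 45 pairs over the 16 libraries, with 100000 permutations of the libraries for each p-value. Their median r was 0.582 and 41 were positive. Without control 1 the median fell to 0.319 and 35 were positive. The same relations were also fitted with edgeR for all 12952 genes, with the log2 CPM of 1 member as the covariate, and the slope is then the log2 change of a gene per doubling of that member. Of the 90 ordered pairs of members 33 had an adjusted p under 0.05, all with a positive slope. The share of all genes called in these fits ran from 0.0% with Nr4a1 to 18.9% with Jun. The number of called pairs was 16 without control 1, where 0 to 2539 of 12951 genes were called per fit. It was 18 with the run code as a block, where 0 to 1963 genes were called per fit.

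Jun, Junb, Zfp36 and Ier2 moved together from library to library. All 4 were above their medians in controls 8, 14 and 15 and below them in controls 2 and 6. Junb and Zfp36 gave r = 0.963 (permutation p = 1e-05, the smallest that the permutations can give; rho = 0.953, p = 1e-05), and r was 0.958 without control 1, 0.949 without controls 1 and 6, the 2 libraries farthest from the median of Junb, and 0.970 when centred within run codes. In the edgeR fit Zfp36 rose by 0.88 ± 0.07 (SE) on the log2 scale per doubling of Junb (adjusted p = 3.6e-06). Jun and Zfp36 gave r = 0.911 (permutation p = 2e-05; rho = 0.918, p = 2e-05), with 0.911 without control 1, 0.896 without controls 2 and 14 and 0.939 within run codes. Junb and Ier2 gave r = 0.914 (permutation p = 1e-05; rho = 0.935, p = 1e-05), with 0.939 without control 1, 0.927 without controls 1 and 6 and 0.967 within run codes. In the edgeR fits each of these 3 relations kept an adjusted p under 0.05 in all 10 alternative settings, among them the run code as a block and leaving out controls 1, 2, 8 or 12.

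**Figure D4:**
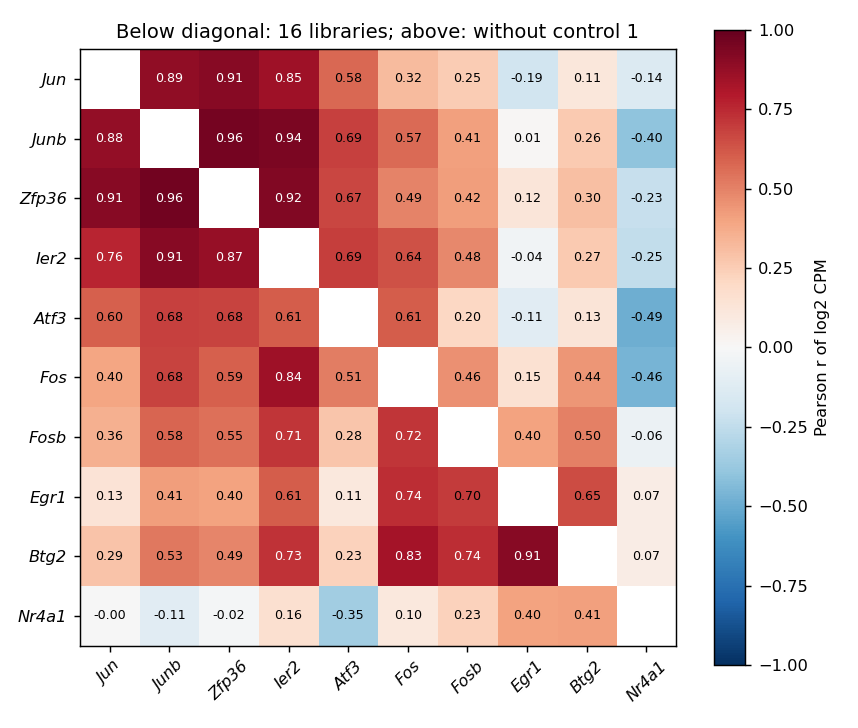
Pearson r of log2 CPM for each pair of immediate early genes, from all 16 libraries below the diagonal and without control 1 above it, on a colour scale from -1 to 1. The block of Jun, Junb, Zfp36 and Ier2 stays red on both sides (Junb and Zfp36 0.963 and 0.958), while Fos and Egr1 go from 0.738 to 0.149 and Nr4a1 stays pale or blue with most genes.

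Many other genes followed the same libraries. In the edgeR fits 15.5% of all genes were called with the level of Junb (2004 genes, 7 of the 9 other members), 18.9% with Jun (4 of 9), 17.0% with Zfp36 (7 of 9) and 2.48% with Ier2 (7 of 9). The 321 genes called with Ier2 became 8, 6 and 11 without control 2, 12 or 8. Without control 1 the member counts were 4 for Junb, 3 for Jun, 4 for Zfp36 and 5 for Ier2, and the shares of all genes were 19.6%, 19.6%, 17.4% and 18.4%. The genes most like Junb over the 16 libraries, out of 8369 with a mean of at least 100 normalized counts, were Dusp1 (r = 0.969), Zfp36 (0.963) and Osm (0.945), which encodes the cytokine oncostatin M. Those most like Jun were Csf2ra (0.965), which encodes the GM-CSF receptor alpha chain, Ier5 (0.955) and Nfam1 (0.955). Those most like Zfp36 were Ppp4r1 (0.974), Gmip (0.971) and Junb.

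Jun, Junb and Zfp36 followed the mean level of the neutrophil markers and that of the monocyte markers, and Ier2 the latter. The monocyte markers did not all move alike. From control 6 (Jun 61.8 normalized counts) to control 8 (Jun 587.4), Ccr1, Cd14 and Lyz2 were higher. Itgax was at 2097 and 2273 in these libraries, Cd68 at 510.7 and 457.7, and Csf1r at 3634 and 1503. Single markers were not tested. With the neutrophil level, the mean log2 CPM of Camp, Cxcr2, Csf3r, Mmp9, S100a8 and S100a9, Jun gave r = 0.890 (permutation p = 3e-05; rho = 0.885, p = 3e-05), Junb gave r = 0.853 (p = 0.0001; rho = 0.885, p = 1e-05) and Zfp36 gave r = 0.858 (p = 7e-05; rho = 0.862, p = 5e-05). Without controls 6 and 8, the farthest in neutrophil level, r was 0.852, 0.806 and 0.823, and without control 1 it was 0.923, 0.969 and 0.938. Centred within run codes it was 0.931, 0.889 and 0.895. For Ier2 the neutrophil level gave r = 0.603 (permutation p = 0.00989; rho = 0.779, p = 0.00071), with 0.511 without controls 6 and 8, 0.780 within run codes and 0.874 without control 1. In blood as a whole, more neutrophils and more RNA of a gene per neutrophil cannot be told apart. In all, 60 relations of the 10 genes with 6 cell type levels were computed.

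In the edgeR fit on the neutrophil level 4 of the 10 genes were called, against 22.4% of all genes. Per doubling of the neutrophil level, Jun rose by 0.74 ± 0.10 (SE, adjusted p = 2.9e-05), Junb by 0.66 ± 0.14 (0.0016), Zfp36 by 0.61 ± 0.11 (0.0005) and Atf3 by 0.30 ± 0.10 (0.04) on the log2 scale. Without control 1, where 22.0% of all genes were called, Ier2 was added to these 4 at 0.30 ± 0.05 (adjusted p = 0.00013). On the monocyte level, the mean log2 CPM of Ccr1, Cd14, Cd68, Itgax, Csf1r and Lyz2, 5 of the 10 were called, against 21.5% of all genes. Here Jun rose by 1.97 ± 0.30, Junb by 1.76 ± 0.29, Zfp36 by 1.59 ± 0.25, Ier2 by 1.05 ± 0.26 and Atf3 by 0.81 ± 0.27, with adjusted p between 0.00029 and 0.041. Without control 1, where 21.1% of all genes were called, the same genes apart from Atf3 were called. The monocyte and neutrophil levels were themselves correlated (r = 0.871, permutation p = 3e-05; rho = 0.871, p = 5e-05; 0.849 without controls 2 and 4; 0.909 within run codes), so the relations to the 2 cell types cannot be told apart.

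**Figure D5:**
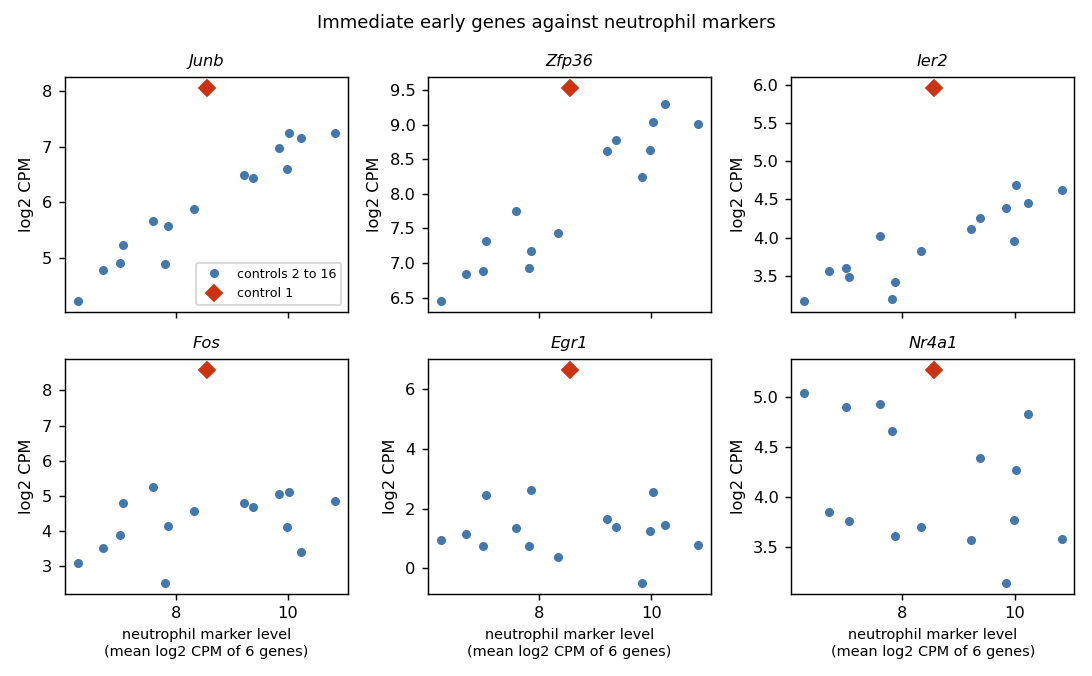
Log2 CPM of Junb, Zfp36, Ier2, Fos, Egr1 and Nr4a1 in each library against the neutrophil marker level, the mean log2 CPM of 6 genes, with control 1 as a red diamond. Junb, Zfp36 and Ier2 climb with the neutrophil level in the other 15 libraries (r = 0.969, 0.938 and 0.874), Egr1 shows no slope (r = -0.073), and control 1 lies above all of them at a middling neutrophil level.

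Fewer relations to the lymphocyte, platelet and red cell levels were called. Across the 10 genes r ran from -0.604 (Jun) to 0.118 (Nr4a1) with the T cell level. With the B cell level it ran from -0.637 (Junb) to 0.412 (Nr4a1). With the platelet level it ran from -0.236 (Nr4a1) to 0.631 (Atf3, permutation p = 0.00777; rho = 0.488, p = 0.057). For Atf3 this r was 0.376 without controls 10 and 12 and 0.661 without control 1. With the red cell level r ran from -0.371 (Fosb) to -0.038 (Nr4a1). On the T cell level 1 of the 10 genes was called by edgeR, against 12.5% of all genes. At an unadjusted p under 0.05 there were 5 of the 10, against 3891 of 12946 genes. The called gene was Jun, which fell by 2.16 ± 0.68 (SE) on the log2 scale per doubling (adjusted p = 0.047). Without control 1 Jun fell by nearly as much, with a slope of -2.11 ± 0.67 (adjusted p = 0.053), and was not called. Ier2, Junb and Zfp36 were then called, all falling. On this level 7.21% of all genes fell with all 16 libraries, and without control 1 11.1% were called and 6.38% fell. None was called on the B cell, platelet or red cell level, where 3.08%, 3.18% and 6.43% of all genes were called. At an unadjusted p under 0.05 there were 3, 1 and 0 of the 10. Of all genes 3034 of 12947, 1929 of 12947 and 1877 of 12948 had such a p. On the platelet level without control 1 there were 4 of the 10, against 1971 of 12947 genes, and none was called. DESeq2 called 3 of the 10 on the B cell level and 0 on the platelet and red cell levels. Of all genes it called 1253 of 12947, 630 of 12947 and 967 of 12948 there.

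The correlations of Fos, Egr1, Fosb and Btg2 with each other were smaller without control 1, to different degrees. Fos and Egr1 gave r = 0.738 (permutation p = 0.0188; rho = 0.359, p = 0.173), which was 0.751 within run codes, 0.149 without control 1 and 0.062 without controls 1 and 10. Fos and Btg2 gave r = 0.834 (p = 0.0032; rho = 0.438, p = 0.0917), which was 0.840 within run codes, 0.438 without control 1 and 0.238 without controls 1 and 10. Fosb gave r = 0.716 with Fos (p = 0.00236; rho = 0.541, p = 0.0333), 0.699 with Egr1 (p = 0.00443; rho = 0.526, p = 0.0388) and 0.737 with Btg2 (p = 0.00176; rho = 0.629, p = 0.0108). These were 0.775, 0.627 and 0.739 within run codes, 0.457, 0.403 and 0.503 without control 1, and 0.35, 0.216 and 0.448 without controls 1 and 15 (for Fos, 1 and 10). Within-run values of these pairs still include control 1. Egr1 and Btg2 kept the most, with r = 0.914 (p = 0.00022; rho = 0.776, p = 0.00057), 0.912 within run codes, 0.650 (rho = 0.729) without control 1 and 0.609 without controls 1 and 7. Fos and Ier2 gave r = 0.844 (p = 0.0004; rho = 0.676, p = 0.00525), 0.843 within run codes, 0.636 without control 1 and 0.540 without controls 1 and 10.

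Across the whole table few genes shared these relations in edgeR with TMM scaling, and DESeq2 called more for Fos and Egr1. For Btg2 the count depended on the scaling. With the level of Fos, 2 genes were called of 12951 (0.0154%), and both were members, Egr1 at 0.96 ± 0.12 (SE) on the log2 scale per doubling (adjusted p = 0.0026) and Ier2 at 0.44 ± 0.06 (adjusted p = 0.021). With the level of Egr1, 2 genes were called (0.0154%), Btg2 at 0.21 ± 0.03 (adjusted p = 0.029) and Fos at 0.58 ± 0.09 (adjusted p = 0.04). With the level of Fosb 1 gene was called (0.00772%), which was Egr1. With the level of Btg2, 41 genes were called (0.317%), of which 4 rose, and 3 of the members, Egr1, Fos and Ier2, were among them. Without control 1 no gene was called with the levels of Fos, Egr1 or Fosb, although 1551, 1575 and 954 had an unadjusted p under 0.05. With Btg2 95 genes were then called, all falling, and none was a member. The slopes of the lost calls moved unequally. Ier2 per doubling of Fos went from 0.44 to 0.38 ± 0.13 (SE, adjusted p = 0.35) and Egr1 per doubling of Btg2 from 3.89 to 3.18 ± 0.91 (adjusted p = 0.2), while Egr1 per doubling of Fos went from 0.96 to 0.31 ± 0.28 (adjusted p = 0.64) and Fos per doubling of Egr1 from 0.58 to 0.07 ± 0.21 (adjusted p = 0.91). DESeq2 called 48 genes with Fos, 53 with Egr1, 5 with Fosb and 2 with Btg2 over all 16 libraries. With Btg2 edgeR called 4591 of 12951 genes under total count scaling, of which 4426 rose, and 2 with DESeq2 size factors.

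Without control 1 the genes nearest to Fos were Csf1 (r = 0.888), which encodes the macrophage growth factor M-CSF, Rgs14 (0.887) and Ube2q1 (0.844). The genes nearest to Egr1 were then Usp20 (0.835), Srp68 (0.834) and Srsf11 (0.827), and those nearest to Btg2 were Brd2 (0.856), Def6 (0.829) and Khdrbs1 (0.825). Over all 16 libraries Btg2 was the gene nearest to Egr1 and Egr1 the gene nearest to Btg2. Neither kept that place without control 1.

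Nr4a1 and Atf3 behaved differently from each other. Atf3 followed Junb (r = 0.683, 0.685 without control 1) and Zfp36 (r = 0.678, 0.668 without control 1), less closely than these followed each other. Nr4a1 did not follow them. Nr4a1 was high in controls 1, 6, 16, 3 and 14 and low in control 7, an order unlike that of Junb, with r = -0.113 (permutation p = 0.678; rho = -0.194, p = 0.472; -0.258 without controls 1 and 6; -0.055 within run codes). Without control 1 alone r was -0.401 and rho -0.450. No gene of the table was called with the level of Nr4a1 by edgeR, although 876 had an unadjusted p under 0.05, and DESeq2 called 61. The genes most like it were Abi3 (r = 0.847), Plxnb2 (0.841), a semaphorin receptor, and Tbc1d8 (0.825), and these were the same 3 without control 1. Atf3 was called with the levels of Junb, at 0.44 ± 0.13 (SE) per doubling (adjusted p = 0.027), and of Zfp36, at 0.48 ± 0.14 (adjusted p = 0.029). With its own level as covariate 168 genes were called (1.30%), none of them a member. At an unadjusted p under 0.05 there were 5 of the 9 other members, against 2975 of 12951 genes. The count of called genes was 0 without control 1 (0.0%), 7 without control 8 and 587 without control 2. Atf3 was most like Nampt (r = 0.868), the NAD salvage enzyme, Mcat (0.865) and Ifit3 (0.858), an interferon-induced gene. Between Nr4a1 and Atf3 r was -0.346 (permutation p = 0.188; rho = -0.406, p = 0.12; -0.419 without controls 1 and 6; -0.546 within run codes; -0.486 without control 1).

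Many of the other primary response genes rose with the levels of Jun, Junb and Zfp36. With the level of Jun 32 of the 54 rose and 1 fell, and with Junb and with Zfp36 30 rose. With Ier2 17 rose and with Atf3 6 rose. Of all genes 12.7%, 12.2%, 12.7%, 2.2% and 1.23% rose in these fits. Without control 1 the counts were 29 with Ier2, against 13.2% of all genes rising, and 0 with Atf3. With Fos, Fosb, Egr1, Nr4a1 or Btg2 none was called. Of all genes 0.0154%, 0.00772%, 0.0154%, 0.0% and 0.317% were called there, so that none of 54 is near the share of all genes. The median slope of the 54 per doubling of Junb was 0.38, against -0.04 over all genes. It was 0.584 with Ier2, 0.505 with Atf3, 0.428 with Zfp36, 0.363 with Jun and 0.354 with Btg2. With Fosb it was 0.285, with Fos 0.147, with Egr1 0.041 and with Nr4a1 -0.068. Examples with Junb were Dusp1 at 0.93 ± 0.07 (SE), Trib1, a pseudokinase gene, at 1.08 ± 0.15, Klf10 at 0.42 ± 0.05 and Nfkbia, which encodes the inhibitor of NF-kappaB, at 0.66 ± 0.14, with adjusted p of 2.8e-06 to 0.0046. The gene that fell with Jun was Ctgf, a matricellular growth factor gene, at -0.40 ± 0.13 (adjusted p = 0.038). With the neutrophil level 29 of the 54 rose and 1 fell, with the monocyte level 31 rose and 1 fell, against 13.9% and 13.8% of all genes rising, and with the T cell level 22 fell, against 7.21%.

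Of the 18 upstream genes 4 rose with Jun, 4 with Junb, 5 with Zfp36, 7 with the neutrophil level and 7 with the monocyte level, and none was called with Fos or Egr1. Of all genes 12.7%, 12.2%, 12.7%, 13.9% and 13.8% rose in the same fits. The count of 4 of 18 is above that share by few genes, and the counts of 5 and 7 lie further above it. Whether the 18 differ from all genes was not tested. With Jun these were Mapkapk2, a kinase downstream of p38, at 0.80 ± 0.11 (SE, adjusted p = 4.7e-05), Creb1 at 0.45 ± 0.09 (0.0013), Rps6ka3 at 0.25 ± 0.05 (0.0021) and Mapk14, which encodes p38 alpha, at 0.30 ± 0.08 (0.014). Srf, which encodes serum response factor, had a slope of 0.11 ± 0.05 with Jun (adjusted p = 0.096).

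The run codes were compared for codes A, B and D in 1 edgeR fit of their 12 libraries. None of the 10 genes was called in any of the 3 comparisons, in which 0.0%, 0.0% and 2.16% of 12952 genes were called for B against A, D against A and D against B. At an unadjusted p under 0.05 there were 3, 2 and 0 of the 10, and DESeq2 also called none of them in the 3 comparisons. With simulated counts the edgeR comparison of B and D recovered 0% of genes changed 2-fold, so the absence of calls cannot exclude differences of that size. The lowest adjusted p was 0.14, by edgeR's quasi-likelihood test, for Egr1 in B against A. The normalized counts there were 54.7 ± 49.1 (SD, n = 5) for code B and 872.5 ± 1428 (SD, n = 3) for code A, which includes control 1. The Fos levels of the other 2 libraries with code A were 298.9 in control 2 and 369.7 in control 3.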

How the data were processed

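Whole blood RNA of 16 saline control rats was depleted of alpha and beta globin mRNA, selected for polyadenylated RNA and sequenced as stranded paired ends. Per the labels and the submitters' processing notes, the authors used CASAVA 1.8.2, aligned reads with Bowtie 0.12.9 to the rat Ensembl transcriptome of build rn5 and made gene-level estimated counts with RSEM 1.2.0, in which ambiguous reads are divided over their candidate transcripts. The deposited expected counts were not normalized, and 19.3% to 27.1% of values per library had a fractional part, so they were rounded here. In its own analysis the study substituted trimmed means for outliers, which was not done here and would bear on a single high library. Files list different genes, so the 18031 genes present in every file were used, and 26405 occur in at least 1.

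Normalized counts are rounded counts divided by DESeq2 1.42.0 size factors. Log2 CPM used a prior count of 2. Fits used edgeR 4.0.16 in R 4.3.3 with TMM scaling, the filterByExpr filter (12952 genes) and the quasi-likelihood F-test, with Benjamini-Hochberg adjustment over all tested genes except those of the covariate, and genes with an adjusted p under 0.05 were called. The standard error is the absolute slope divided by the square root of F. DESeq2, its size factors, total count scaling, no filter, run code as a block and fits that leave out libraries were the alternatives. Correlations used 100000 two-sided permutations in Python 3.11.15, and values within run codes were centred on the mean of each code with more than 1 library. The labels number the rats but name no experiment date, and p-values measure the spread between these 16 libraries.

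Simulated counts of 12952 genes, 200 of them changed, served as a test of the code. With the level of Junb it recovered 50.5% of genes changed by 0.5 log2 units per doubling and 89% of those changed by 1, and with Fos 68.5% and 90.5%. For run code B against D it recovered 0% of genes changed 2-fold and 71.5% of those changed 4-fold.

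The members, the gene lists and the marker lists were chosen with earlier results of these data known. The genes named beside the members are the 3 with a symbol, a mean of at least 100 normalized counts and the highest r with each member, and members of the lists that were called, highest in control 1 or, in single cases, chosen after their values were seen (Srf). Fits without control 1, and the genes named from them, were chosen after seeing the data. Mcl1 did not match an entry, and Egr4 and Npas4 are not in every file, so they were not used. Promoter sequences are RefSeq windows of build GRCr8, matched by symbol.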

Additional observations from a re-analysis of the deposited data

How the results depend on the processing

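Of 43 called relations of the genes with each other or with a cell type level, 19 kept their direction and an adjusted p under 0.05 in all 10 alternative settings. These 19 link Jun, Junb, Zfp36 and Ier2 with each other (apart from Jun with the level of Ier2), Jun, Junb and Zfp36 with the neutrophil level, all 4 with the monocyte level, and Atf3 with Junb. The relations of Fos, Fosb, Egr1 and Btg2 to other members were called in none of the fits without control 1, except Fos with Ier2 (0.99 ± 0.33 (SE) on the log2 scale per doubling, adjusted p = 0.048). A lost call there does not show that a slope shrank, as Fosb with Ier2 went from 0.89 to 0.76 (adjusted p = 0.14) and Egr1 with Btg2 stayed at 2.99 or more in all settings. The slope of Egr1 with Ier2 turned from 1.66 to -0.11 without the 2 farthest libraries (adjusted p = 0.88) and to -0.01 without control 1 (adjusted p = 0.99) in edgeR. The 33 called ordered pairs became 18 with the run code as a block, 16 without the 2 farthest libraries and 16 without control 1. In these settings 0 to 1963, 0 to 2673 and 0 to 2539 of 12951 genes were called per fit. Members called on the T cell level, 1 at first, were 3 with DESeq2 size factors, 4 with DESeq2, 3 with the run code as a block, 3 without control 1, and 0 with total count scaling, no filter, without control 8, without control 12 or without the 2 farthest libraries. Of 12946 genes 1844, 2451, 813 and 1440 were called in the first 4 of these settings, against 1614 at first. Total count scaling called 5323 of the 12946, and no filter 1336 of 17847. Without control 8, control 12 or the 2 farthest libraries 21, 486 and 15 were called. On the B cell level 0 became 1 with total count scaling, 3 with DESeq2 and 2 with the block. These settings called 5504, 1253 and 355 of 12947 genes, against 399 at first. On the monocyte level 5 became 8 with total count scaling, which called 2199 of 12946 genes, against 2778 at first. Over all genes DESeq2 called 1543 with Ier2 and 1392 with Atf3, against 321 and 168 in edgeR. With Btg2 edgeR called 4591 under total count scaling and 2 with DESeq2 size factors, against 41 at first. The causes were not tested. Genes called between run codes ranged from 0 to 563 for B against A, 0 to 14 for D against A and 2 to 742 for D against B, against 0, 0 and 280, while the count of members stayed at 0 in each setting, also without each library in turn. No paired analysis was possible because all libraries belong to a single labelled group.

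Depth limits Fosb most, with 4 to 60 counts per library. A single library carries the Fos and Egr1 excess, so its size has no replicate, and blood counts, RNA quality per rat and the time from draw to freezing were not analysed here.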
